A study of Homo sapiens with 2 samples.

Results

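The genes described here encode 9 enzymes that make serine and carry its carbon through the folate cycle: PHGDH, PSAT1, PSPH, SHMT1, SHMT2, MTHFD1, MTHFD1L, MTHFD2 and TYMS. They were taken by gene name from a table of 36814 gene-start windows, and all 9 had a window. PHGDH oxidises the glycolytic intermediate phosphoglycerate, PSAT1 adds the amino group, and PSPH removes the phosphate to give serine. SHMT1 in the cytosol and SHMT2 in the mitochondrion split serine into glycine and a carbon unit held on tetrahydrofolate. MTHFD2 and MTHFD1L turn that unit into formate inside the mitochondrion, MTHFD1 loads formate back onto folate in the cytosol, and TYMS spends the unit on thymidylate for DNA. PHGDH, PSAT1, PSPH, SHMT2, MTHFD1L and MTHFD2 are known as genes that the amino acid stress factor ATF4 can activate.

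Nascent RNA was measured by PRO-seq, in which engaged polymerases run on with biotinylated nucleotides for 5 min at 30 °C before the labelled RNA is captured and sequenced. The cells were K562, an established human line from chronic myelogenous leukaemia, and the libraries were 1 of cells given 0.1% DMSO, a drug solvent, for 1 h and 1 of untreated cells. With 1 library per treatment no value has a replicate check, and each comparison is between 2 libraries, not between conditions. Each window covers 6000 bases centred on an annotated gene start of hg38.

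The DMSO library held 4154920 reads and the untreated library 2136291, of which windows over ribosomal RNA repeats took 42.2% and 71.5%. Ratios were therefore scaled with TMM, a trimmed mean of window ratios, and are given as log2 DMSO over untreated relative to the median of the 6591 windows past a floor of 5 CPM (reads scaled to the library total) on average and 100 reads in both libraries together. That median stood at 0.30 on the TMM scale. Intervals are 95% and exact, and they cover counting error only, since there was 1 library per treatment. Reads carried no molecular identifiers, so copies of the same molecule could not be told from separate molecules. The intervals may therefore be too narrow even for counting error. Of 12 erythroid marker windows 10 reached 1 CPM in both libraries, and HBE1, which has no base of its own, was at 0. None of 5 myeloid and none of 5 epithelial marker windows reached 1 CPM in both. The myeloid windows still held 76 DMSO reads against 4 untreated reads (18.3 against 1.87 CPM). CD14 held 40 of these DMSO reads and 0 untreated, and CSF1R 17 and 0. The epithelial windows held 6 DMSO and 2 untreated reads. A list of 20 neural markers held 4195 DMSO reads against 11 untreated reads, or 1010 against 5.15 CPM. CDR1 alone held 2985 of the DMSO reads, and without it the list had 1210 DMSO reads (291 CPM). CDR1, GFAP (514 DMSO reads), MT3 (188), NTRK2 (119) and BEX3 (108), all at 0 untreated, were known from an earlier look at these data. Most DMSO reads of the list, with or without CDR1, lie in these known windows, so the sum is no independent check. In that list 18 windows had a read with DMSO and 3 without it, and NEFL and TUBB3 were at 0 in both libraries. The part of these differences between the libraries in the values below was not tested.

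Only 4 of the 9 windows could be read in full. The windows of PSAT1, SHMT1, MTHFD1 and MTHFD1L shared no base with another window and passed the floor. The other 5 had between 0 and 626 bases of their own and held 13 DMSO and 3 untreated reads in all. Reads in bases shared by windows were missing from the table whatever the strand: all 1154 windows with no base of their own held 0 reads, 321 of them overlapped by opposite-strand windows alone. Few reads in these 5 windows thus say nothing of the level at the gene.

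The stretches before the starts of the 4 genes with readable windows are shown, because these are the gene starts whose reads the results rest on. Each runs 5′ to 3′ over the 250 bases before a RefSeq start (GRCh38.p14). Capitals mark matches, on either strand, to TGATGNAA (the composite site of C/EBP and ATF factors), TGACGTCA (the cAMP response element), CACGTG (the E-box), TTTCCCGC, TTTGGCGC or TTTCGCGC (E2F-like), CCAAT (the CAAT box), GGGCGG (the GC box) and TATAAA (the TATA box). MTHFD1L has 3 promoter entries in its window, and the most downstream is given. Its RefSeq gene span begins upstream of all 3, and distances inside MTHFD1L below are counted from the start of that span.
PSAT1, chr9:78296875-78297124, plus strand: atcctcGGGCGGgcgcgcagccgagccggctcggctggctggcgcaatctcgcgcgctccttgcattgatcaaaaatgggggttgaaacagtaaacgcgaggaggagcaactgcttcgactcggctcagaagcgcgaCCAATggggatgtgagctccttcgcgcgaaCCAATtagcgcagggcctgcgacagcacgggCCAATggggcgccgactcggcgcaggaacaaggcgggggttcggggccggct
SHMT1, chr17:18363551-18363800, minus strand: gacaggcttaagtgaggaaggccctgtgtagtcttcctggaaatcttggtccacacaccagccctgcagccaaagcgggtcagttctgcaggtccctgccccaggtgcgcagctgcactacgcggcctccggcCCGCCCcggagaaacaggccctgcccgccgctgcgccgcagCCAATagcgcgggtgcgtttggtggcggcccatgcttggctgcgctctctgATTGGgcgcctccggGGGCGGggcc
MTHFD1, chr14:64388103-64388352, plus strand: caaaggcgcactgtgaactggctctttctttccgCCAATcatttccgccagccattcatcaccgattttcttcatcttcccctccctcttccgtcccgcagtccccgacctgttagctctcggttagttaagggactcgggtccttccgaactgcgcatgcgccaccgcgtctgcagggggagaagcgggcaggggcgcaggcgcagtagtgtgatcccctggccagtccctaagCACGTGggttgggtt
MTHFD1L, chr6:150866236-150866485, plus strand: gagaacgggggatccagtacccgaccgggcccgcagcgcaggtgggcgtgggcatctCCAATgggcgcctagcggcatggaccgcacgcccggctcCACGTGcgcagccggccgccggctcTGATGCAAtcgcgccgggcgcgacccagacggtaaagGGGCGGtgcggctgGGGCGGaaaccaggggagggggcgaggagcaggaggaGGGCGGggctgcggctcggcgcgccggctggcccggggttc

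The marked letters differed between the genes, and no marked matches overlapped. PSAT1 held CCAAT 3 times, at bases -113, -83 and -52 counted back from the start, and GGGCGG at -244. SHMT1 held CCAAT at -76 and, on the other strand, at -25, and GGGCGG at -10 and, on the other strand, at -117. In MTHFD1 the E-box letters CACGTG began at -15 and CCAAT at -216. MTHFD1L held CCAAT at -193, CACGTG at -154, TGATGCAA at -129 and GGGCGG at -92, -78 and -41. Promoter entries of 300 bases (250 before to 50 after the start) existed for 7 of the 9 genes, PSPH and SHMT2 being the exceptions. Of these 7 genes, 1 matched TGATGNAA, against 3.62% of all 35116 promoter entries. CACGTG was found in 2 (7.26% of all entries), CCAAT in 6 (34.6%) and GGGCGG in 3 (45.0%), and TGACGTCA in 0 (1.85%). The E2F-like letters were found in 1 (2.74%), TYMS, and TATAAA in 1 (11.5%), PHGDH. MTHFD1L entered with its 4 promoter entries. These are matches of letters, not measured sites.

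Among the serine synthesis genes, PSAT1 was lower with DMSO and the other 2 had almost no countable bases. PSAT1 (ENSG00000135069.14, chromosome 9, 78294125 to 78300124), the aminotransferase, had 73 reads with DMSO (interval 57.2 to 91.8) and 58 untreated (44.0 to 75.0), although the DMSO library was the deeper one. Its log2 ratio relative to the median window was -1.90 (interval -2.41 to -1.37), a level 3.72-fold lower with DMSO. That ratio lay at percentile 0.941 of the 6591 windows past the floor. Without centring on the median window it was -1.60 under TMM, and by library totals alone -0.63, so PSAT1 stood below the untreated level on every scale tried. Among 1544 windows of like read number it lay at percentile 1.10.

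PHGDH, the first enzyme of the path, had 0 reads in both libraries, which, at a limit of 3 reads, allows up to 0.722 CPM with DMSO and 1.40 CPM untreated. Its window (chromosome 1, 119645411 to 119651410) kept 144 bases beside that of ZNF697 and does not hold the RefSeq start of PHGDH, which lies 60524 bases past the window's end. No window of the table holds that start, so the start that RefSeq annotates was not measured. PSPH, the phosphatase, had 7 reads with DMSO and 2 untreated in the 80 bases it does not share with the chaperonin gene CCT6A, which is transcribed from the opposite strand. Those bases lie 2760 to 2839 bases inside PSPH, and CCT6A had 5 and 0 reads in its own 80.

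**Figure D1:**
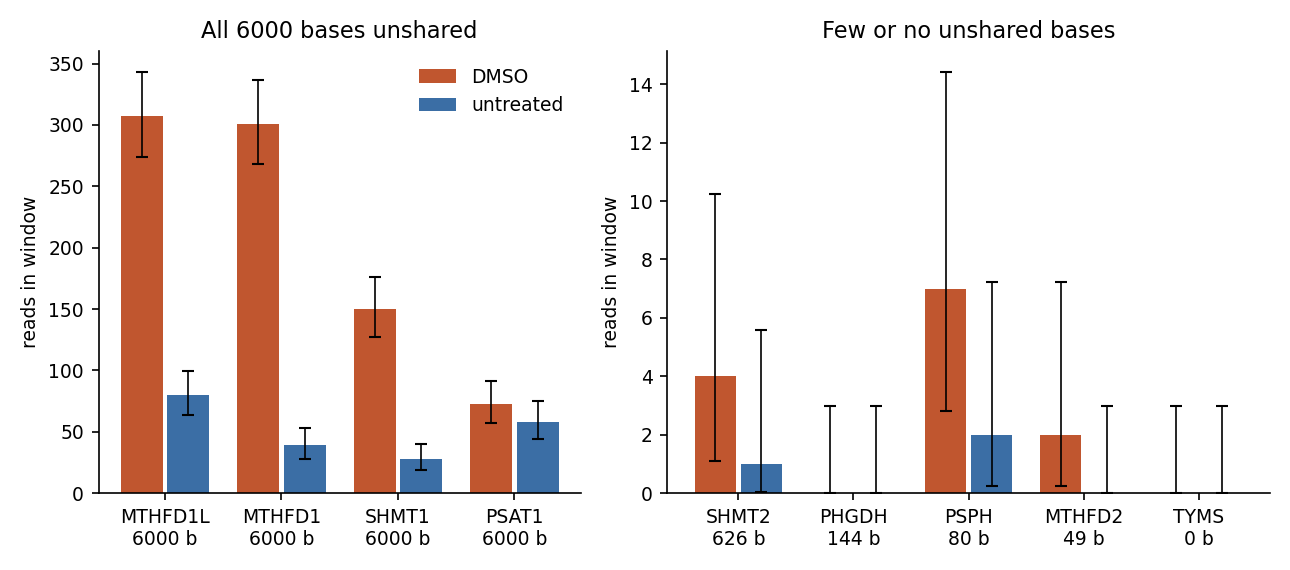
Reads in the window of each of the 9 genes, DMSO (orange) left of untreated (blue), with exact 95% Poisson intervals as bars (for a count of 0, up to the limit of 3 reads) and the number of unshared bases (b) under each name. The left panel holds the 4 genes with 6000 unshared bases, from 307 DMSO reads in MTHFD1L to 73 in PSAT1, and the right panel, on its own scale, the other 5, with 7 reads at most.

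The 2 hydroxymethyltransferases could be compared in part. SHMT1 (ENSG00000176974.20, chromosome 17, 18360564 to 18366563), the cytosolic enzyme, had 150 reads with DMSO (interval 127 to 176) and 28 untreated (18.6 to 40.5). Its log2 ratio of 0.18 (interval -0.39 to 0.83) held the median window within counting error. SHMT2, the mitochondrial enzyme, had 4 DMSO reads and 1 untreated read in its window (chromosome 12, 57226573 to 57232572). Its 626 unshared bases all lie 2513 to 3138 bases before the RefSeq start, so they hold none of the gene.

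Of the folate dehydrogenases and synthetases, MTHFD1L and MTHFD1 had readable windows, with the 2 highest DMSO counts among the 4 readable windows. MTHFD1 (ENSG00000100714.17, chromosome 14, 64385031 to 64391030), the cytosolic enzyme with 3 activities, had 301 reads with DMSO (interval 268 to 337) and 39 untreated (27.7 to 53.3). Its log2 ratio was 0.71 (interval 0.24 to 1.24), the highest of the 4, at percentile 85.7. MTHFD1L (ENSG00000120254.15, chromosome 6, 150862549 to 150868548), the mitochondrial formate synthetase, had 307 reads with DMSO (interval 274 to 343) and 80 untreated (63.4 to 99.6). Its log2 ratio was -0.29 (interval -0.64 to 0.09) relative to the median window and 0.00 on the TMM scale without centring. MTHFD2, the mitochondrial dehydrogenase, had 2 reads with DMSO and 0 untreated in 49 unshared bases of its window (chromosome 2, 74195610 to 74201609). TYMS, the thymidylate synthase, had no base of its own in its window (chromosome 18, 654653 to 660652) and 0 reads in both libraries, since the windows of TYMSOS and AP001178.1 cover it entirely.

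**Figure D2:**
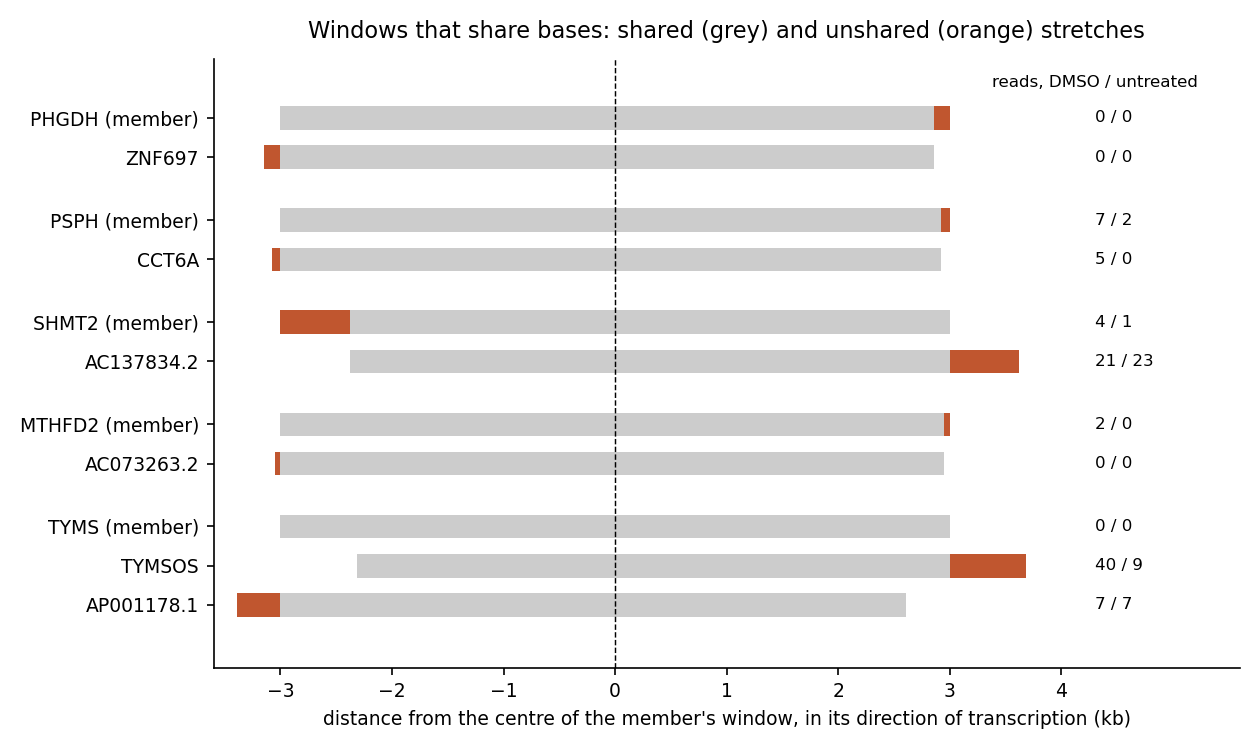
Windows of the 5 genes with few or no unshared bases and of the windows that overlap them, by distance in kb from the centre of the gene's window in its direction of transcription, with shared stretches in grey, unshared ones in orange and the reads of each window at the right, DMSO before untreated. The shared stretches span the window centre of all 5 genes, and the unshared stretches with most reads are those of TYMSOS (40 and 9) and AC137834.2 (21 and 23), 3 kb or more past the centre.

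Of the 4 genes past the floor, 1 was at least 2-fold lower with DMSO (PSAT1) and 0 were at least 2-fold higher, against 7.97% lower and 6.86% higher among all windows past the floor. On the TMM scale without centring the split was 1 lower and 1 higher (MTHFD1), where 3.43% of all windows were lower and 14.4% higher. By library totals without centring it was 0 lower and 2 higher, where 0.47% of all windows were lower and 65.7% higher, so these counts follow the shift of all windows. The median of the 4 ratios was -0.06, against 0 for all windows by construction, with 2 genes above and 2 below. The 4 genes thus did not move together between the libraries. The central 80% of all windows past the floor ran from -0.90 to 0.86, which holds SHMT1, MTHFD1 and MTHFD1L and leaves out PSAT1.

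**Figure D3:**
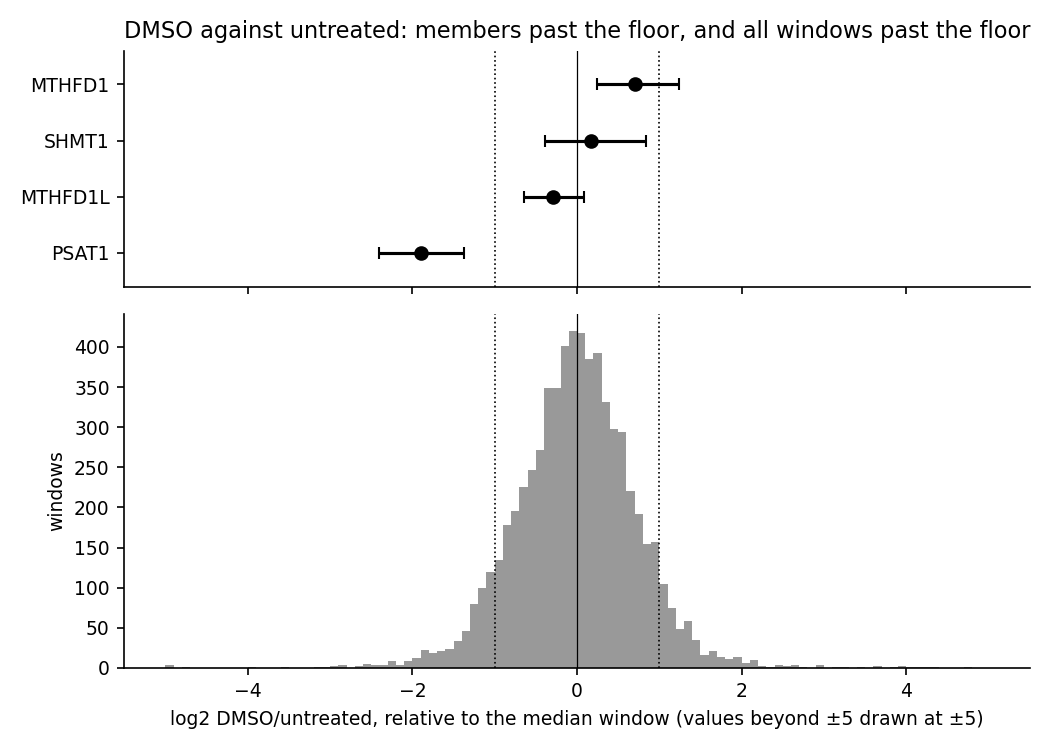
Log2 DMSO over untreated relative to the median window for the 4 genes past the floor (top, points with exact 95% intervals of counting error) above the histogram of all 6591 windows past the floor, with dotted lines at 2-fold. PSAT1 at -1.90 lies in the low tail, and MTHFD1L, SHMT1 and MTHFD1 lie between -0.29 and 0.71 in the bulk.

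The genes can also be set against each other within each library, which needs no scaling. PSAT1 made up 8.78% of the 831 DMSO reads of the 4 genes (Clopper-Pearson interval 6.95 to 10.9) and 28.3% of their 205 untreated reads (22.2 to 35.0). MTHFD1 made up 36.2% with DMSO (32.9 to 39.6) and 19.0% untreated (13.9 to 25.1). SHMT1 made up 18.1% with DMSO and 13.7% untreated, and MTHFD1L 36.9% and 39.0%. The 4 shares depend on each other, since a lower share of PSAT1 raises those of the other genes. MTHFD1 reads per PSAT1 read were 4.12 with DMSO and 0.672 untreated, a 6.10-fold difference (exact interval 3.69 to 10.2). SHMT1 per PSAT1 differed 4.23-fold (2.43 to 7.53) and MTHFD1L per PSAT1 3.04-fold (1.95 to 4.75). MTHFD1 per MTHFD1L differed 2.01-fold (1.31 to 3.13). The intervals of MTHFD1 per SHMT1 (0.819 to 2.50) and SHMT1 per MTHFD1L (0.854 to 2.33) held 1. The largest of these differences all involve PSAT1, so they are not separate results. The intervals cover counting error only and are not adjusted for the number of pairs. How often pairs of other windows differ as much was not tested.

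The order of levels followed from the same counts, as all 4 genes have 6000 countable bases. Each window spans both sides of the gene start and strand is not kept. These levels, and the ratios above, thus pool reads before and after the start on either strand. With DMSO the levels were 12.3 CPM per kb for MTHFD1L, 12.1 for MTHFD1, 6.02 for SHMT1 and 2.93 for PSAT1. MTHFD1 and MTHFD1L did not differ beyond counting error there (ratio 0.980, interval 0.834 to 1.15). The steps from MTHFD1 to SHMT1 (2.01, interval 1.64 to 2.46) and from SHMT1 to PSAT1 (2.05, interval 1.54 to 2.76) were larger than it. In the untreated library the levels were 6.24 CPM per kb for MTHFD1L, 4.52 for PSAT1, 3.04 for MTHFD1 and 2.18 for SHMT1, and no neighbours in that order differed beyond counting error. Among 32081 windows with at least 200 unshared bases, PSAT1 ranked at percentile 73.9 with DMSO and 89.8 untreated, and MTHFD1L at 92.3 and 93.4. CPM are scaled to library totals, so these levels rank genes within a library and do not compare the libraries.

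Reads inside the gene bodies give a further view, including of 2 genes whose start windows could not be read. The table holds 5 windows named for other genes whose unshared bases lie wholly inside 4 of the 9 genes. They were picked out after the table's values were seen, and since strand is not kept their reads may belong to the enclosing gene or to the gene they are named for. Of the 5, 3 fall under 100 reads, so their ratios are given relative to the median of the 12023 windows with at least 1 CPM on average and 20 reads, which stood at 0.17 on the TMM scale.

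The unshared bases of AC137834.2, on the strand opposite to SHMT2, lie 2862 to 3487 bases past the SHMT2 start (chromosome 12, 57232573 to 57233198). They held 21 DMSO reads (interval 13.0 to 32.1) and 23 untreated reads (14.6 to 34.5), a log2 ratio of -2.23 (interval -3.15 to -1.31) at percentile 1.16. The window AL133260.2, 187 to 193 kb past the start of MTHFD1L, held 34 DMSO reads (23.5 to 47.5) and 31 untreated reads (21.1 to 44.0), a log2 ratio of -1.97 (interval -2.71 to -1.21) at percentile 1.96. RefSeq places no other gene in either window. Inside TYMS, the 688 unshared bases of TYMSOS, 3000 to 3687 bases past the start, held 40 DMSO and 9 untreated reads, a log2 ratio of -0.01 (interval -1.01 to 1.28). Inside MTHFD1, AL122035.2 (119 DMSO and 21 untreated reads) stood at 0.38, and AL122035.1 (86 and 29 reads), which also overlaps ZBTB25, at -0.55. Thus 2 of the 5 were at least 2-fold lower with DMSO, against 12.2% of all windows past that floor (12.4% were at least 2-fold higher, against 0 of the 5).

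Start and interior differed within MTHFD1L. The DMSO-to-untreated read ratio was 3.49-fold higher at the start window than at AL133260.2 (exact interval 1.95 to 6.25). For MTHFD1 the start exceeded AL122035.1 by 2.60-fold (1.46 to 4.59), and its 1.36-fold difference from AL122035.2 (0.729 to 2.49) lay within counting error. Between the interior stretches of TYMS and SHMT2, which are of like length, the ratio differed 4.78-fold (1.76 to 14.0). That pair includes the lowest of the 5 interior ratios. All these comparisons rest on windows picked after their values were seen, so their intervals are no independent check. The untreated library held few reads in the 5 interior windows, from 9 to 31.

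**Figure D4:**
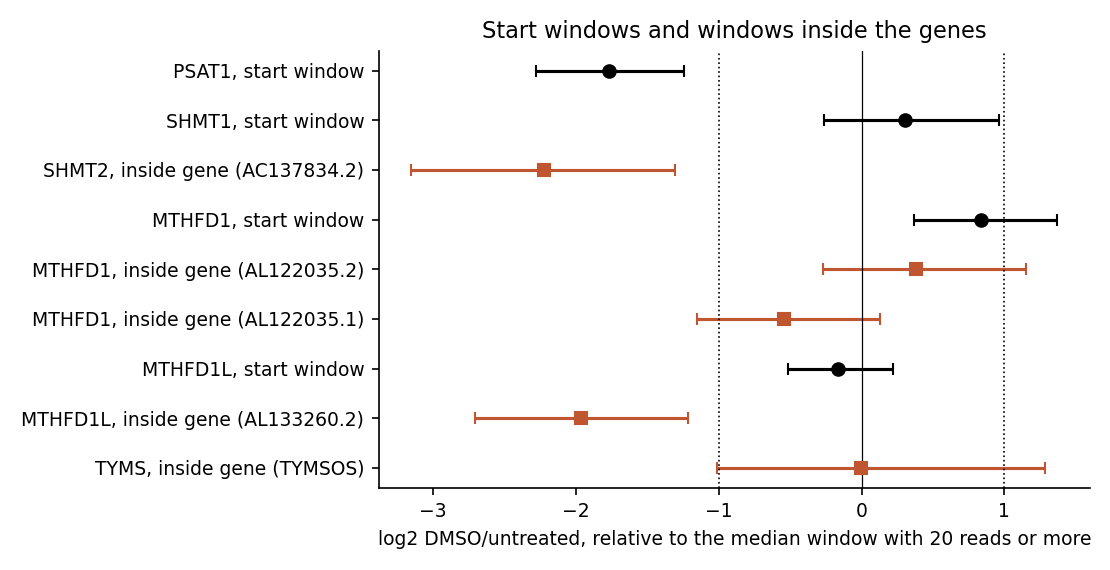
Log2 DMSO over untreated relative to the median window with 20 reads or more, for start windows (black circles) and windows inside the genes (orange squares, with the window's name), with exact 95% intervals of counting error and dotted lines at 2-fold. The start of PSAT1 and the windows inside SHMT2 and MTHFD1L lie below -1 with their whole intervals, and the start of MTHFD1 lies highest at 0.84.

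Other genes of the pathway, and 7 transcription factors known to act on the genes above, were taken from 6 lists. Together they are called other pathway genes below. Of their 77 windows, 28 passed the floor and 28 had under 1 kb of unshared bases. Of the 28 past the floor, 2 were at least 2-fold lower with DMSO (CTH and AMT). Another 2 were at least 2-fold higher (SPTLC2 and the transcription factor E2F1). That is 7.14% each way, close to the 7.97% and 6.86% of all windows. Their median ratio was 0.14. CTH releases cysteine from the cystathionine that CBS builds from serine and homocysteine, and AMT is a subunit of the glycine cleavage system.

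In the methionine cycle and transsulfuration list, 4 of 13 windows passed the floor, with a median of -0.49. CTH had 72 reads with DMSO and 72 untreated, a log2 ratio of -2.23 (interval -2.72 to -1.73) at percentile 0.516. CBS had 339 and 120 reads and stood at -0.73 (interval -1.03 to -0.41), and AHCYL1, a relative of the enzyme that hydrolyses adenosylhomocysteine, at 0.37. Among the genes that use serine or glycine 8 of 15 passed, with a median of 0.13. AMT had 108 DMSO and 48 untreated reads (-1.06, interval -1.56 to -0.53). SPTLC2, a subunit of the enzyme that starts sphingolipids from serine, had 167 and 16 (1.12, interval 0.42 to 2.00). PTDSS2, a phosphatidylserine synthase, stood at -0.07 and DLD, shared by glycine cleavage and other complexes, at 0.01.

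In the folate list 4 of 17 windows passed, and all lay between -0.17 (FPGS, which adds glutamates to folate, in a window without its RefSeq start) and 0.48 (GGH, which removes them), with MTFMT, the mitochondrial formyltransferase, at 0.10. Of 13 purine synthesis windows 4 passed, from -0.02 for GMPS, which makes GMP, to 0.85 for PRPS2, which makes the ribose donor, with ADSSL1 at 0.18. Of 12 windows for thymidylate and deoxynucleotides 6 passed. RRM2, the small subunit of ribonucleotide reductase, had 1041 DMSO and 222 untreated reads and stood at 0.00. NME2 stood at 0.48, DCTD, which makes the substrate of TYMS, at 0.99, and the kinase gene DCK at -0.45. None of these 3 lists held a window past 2-fold in either direction.

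Of 7 transcription factors known to act on these genes 2 passed the floor. ATF4 had 1610 DMSO and 260 untreated reads and a log2 ratio of 0.40 (interval 0.22 to 0.60), above the median window. Of the 6 genes named at the outset as ATF4 targets, PSAT1 (-1.90) and MTHFD1L (-0.29, with the median window inside its interval) had readable start windows. E2F1, a cell cycle factor known to act on TYMS, had 466 and 41 reads and stood at 1.27 (interval 0.82 to 1.78).

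**Figure D5:**
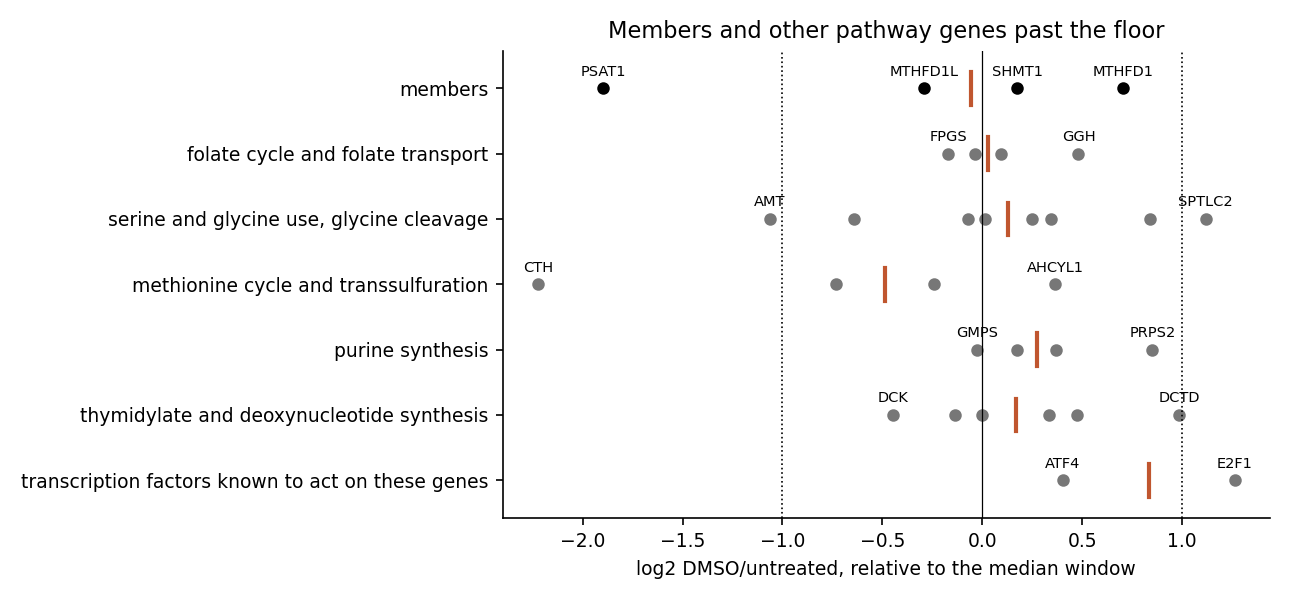
Log2 DMSO over untreated relative to the median window for the 4 genes past the floor (black) and for the genes past the floor in each of the 6 pathway lists (grey), with the median of each row as an orange bar and dotted lines at 2-fold. CTH at -2.23 and PSAT1 at -1.90 lie apart from the other genes shown, which run from -1.06 for AMT to 1.27 for E2F1.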

How the data were processed

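The table holds read counts and TPM of each library over 6000-base windows at gene starts. Per the submitters' processing notes, the aligner was Bowtie2 2.3.5, the build hg38 and the counter featureCounts 2.0.1. The deposited TPM of the DMSO library equalled CPM in all 36814 windows, as windows have 1 length. The untreated TPM were not compared. CPM of both libraries were computed from the deposited counts. Columns were matched to the libraries by their titles. edgeR 4.0.16 (R 4.3.3) gave TMM factors, by which 3.81 DMSO reads equal 1 untreated read. Log2 ratios used a prior count of 0.5 reads. Intervals are exact Poisson for counts, Clopper-Pearson for shares and ratios, and conditional exact for ratios of ratios (SciPy 1.17.1). A count of 0 allows up to 3 reads. No test was possible with 1 library per treatment. The ratio script was tested on simulated data. Unshared bases were found from the windows' coordinates; exons and introns were not used here. Promoter sequences and gene spans come from RefSeq (GRCh38.p14).

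The 9 genes, the lists and the markers were chosen with earlier results of these data known. All 9 genes are named; from each list, the 2 of highest mean CPM and the lowest and highest ratio past the floor. Lymphoid markers, some of which held reads, are not reported here.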

Additional observations from a re-analysis of the deposited data

How the results depend on the processing

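No paired analysis was possible because there was only 1 library of each kind, so none could be left out. Since ratios are centred on the median window, library totals, DESeq2 1.42.0 size factors, the upper quartile and TMM without ribosomal RNA and mitochondrial windows left them as they were. Over all settings PSAT1 ran from -2.14 to -0.63, MTHFD1 from 0.61 to 1.97, SHMT1 from 0.16 to 1.44 and MTHFD1L from -0.38 to 0.97, with library totals without centring giving the highest value each time. That setting and the one with windows of like read number were added after the data were seen.

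Of the 9 genes, 0 were at least 2-fold lower with DMSO at a floor of 20 CPM and 400 reads, which none of them passed. Of the 4 genes past the main floor, 1 was at least 2-fold higher and 1 lower without centring (all windows 14.4% and 3.43%). At 1.5-fold 1 was higher and 1 lower (18.4% and 19.6%). With library totals without centring 2 were higher and 0 lower (65.7% and 0.47%), with a median of 1.21. Of the other pathway genes, those higher and lower (2 and 2 of 28) numbered 4 and 5 of 39 at 1 CPM and 20 reads (all windows 12.4% and 12.2%), 1 and 0 of 13 at 20 CPM and 400 reads (3.99% and 6.15%) and 10 and 14 of 69 with any read (17.9% and 16.7%). Of the 28 they numbered 5 and 1 without centring (14.4% and 3.43%), 5 and 4 at 1.5-fold (18.4% and 19.6%), and 23 and 0 with library totals without centring (65.7% and 0.47%), where their median was 1.40. Floors change how many windows are counted; otherwise the cause was not tested. A search of the forward strand alone gave 0 of the 7 genes a match to the E2F-like letters and 0 one to TATAAA. Depth limits the ratios of the 9 genes, whose untreated counts were 80 or less.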
